A study of Mus musculus with 6 samples.

Results

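Melatonin is made from tryptophan in 4 enzymatic steps, and the cells that receive it carry receptors of the G protein-coupled class. The 5 genes described here are the 3 members of the mouse melatonin receptor family (Mtnr1a, Mtnr1b and Gpr50) and the enzymes of the opening and penultimate steps of synthesis (Tph1 and Aanat). They are 5 of 55487 genes in the deposited table and were found by their gene symbol, each on a single identifier. The group was chosen by its values in this same control against knockout comparison, so the values of the 5 genes are given as a description, with no test.

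The cells came from retinas of mouse pups of C57BL/6 J background at postnatal day 7.5 and were sorted as vascular endothelial cells (VECs), the cells that line blood vessels. Per the study, animals were kept in a light/dark cycle and retinas were taken at noon, so no value here is from the night. Control pups (tdTomato FL/+;Pdgf-icreER) carried a reporter that Cre switches on and a transgene with a tamoxifen-inducible Cre recombinase and GFP, active in VECs. The Bmal1;CKO pups (Bmal1 FL/FL;tdTomato FL/+;Pdgf-icreER) carried in addition floxed alleles of Bmal1, a transcription factor of the circadian clock that is listed in the table as Arntl. Both groups received tamoxifen from postnatal day 0.5 to day 2.5, so exposure to tamoxifen and to Cre is shared, and by the stated genotypes the groups differ in the floxed alleles. The sort kept live cells with both GFP and tdTomato, so it reports where Cre was active and not whether the Bmal1 alleles recombined. Each group had 3 libraries, called here control 1 to 3 and Bmal1;CKO 4 to 6. Poly(A) RNA was amplified from a small input before sequencing.

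Tryptophan hydroxylase, encoded by Tph1 in the pineal gland and gut and by Tph2 in neurons, makes 5-hydroxytryptophan, which Ddc converts to serotonin. Aanat then acetylates serotonin, the step whose activity rises at night in the pineal gland, and Asmt methylates the product to melatonin. In the retina of many vertebrates this pathway is assigned to photoreceptors and is under clock control, and common laboratory strains related to C57BL/6 carry an Aanat splice defect and make little melatonin. Mtnr1a and Mtnr1b encode the receptors MT1 and MT2, which lower cyclic AMP through inhibitory G proteins, whereas Gpr50 encodes a relative that does not bind melatonin.

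BMAL1 binds, with its partner CLOCK, to the E-box, so the 250 bases before the start of the genes were searched on both strands for that letter string. The strings were the E-box CACGTG, the related E'-box CACGTT, the core TGACG of the cyclic AMP response element, the CRX core TAATCC and the REV-ERB and ROR core AGGTCA. None of these strings contains another. RefSeq promoters of build GRCm38.p6 matched 4 of the 5 members, all but Aanat, whose upstream sequence was therefore not searched. The upstream sequences of Mtnr1a, of its silent relative Mtnr1b and of the more downstream start of Tph1 are shown, since these are the receptor that was read only in Bmal1;CKO libraries, the receptor that was read nowhere and the enzyme that was lower in them. Capitals mark the strings found, also where they stand as the reverse complement.
Mtnr1a, plus strand, chr8:45068857-45069106: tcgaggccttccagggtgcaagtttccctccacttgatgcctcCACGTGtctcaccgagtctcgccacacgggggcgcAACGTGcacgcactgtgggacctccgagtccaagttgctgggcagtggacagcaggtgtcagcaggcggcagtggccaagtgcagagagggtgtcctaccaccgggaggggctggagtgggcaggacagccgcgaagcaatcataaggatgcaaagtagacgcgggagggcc
Mtnr1b, minus strand, chr9:15874557-15874806: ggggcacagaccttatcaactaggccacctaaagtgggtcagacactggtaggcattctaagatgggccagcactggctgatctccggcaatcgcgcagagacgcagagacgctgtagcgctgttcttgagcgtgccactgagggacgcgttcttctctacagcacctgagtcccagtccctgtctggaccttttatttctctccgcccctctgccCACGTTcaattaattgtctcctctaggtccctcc
Tph1, minus strand, chr7:46667378-46667627: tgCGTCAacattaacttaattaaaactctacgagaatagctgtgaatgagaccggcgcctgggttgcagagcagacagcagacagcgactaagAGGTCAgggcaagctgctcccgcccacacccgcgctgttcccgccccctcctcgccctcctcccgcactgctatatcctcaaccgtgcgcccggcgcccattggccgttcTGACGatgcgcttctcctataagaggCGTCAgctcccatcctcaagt

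Positions are counted from the RefSeq start that follows each window, which for Mtnr1a lies upstream of the gene start given below. The Mtnr1a window held an E-box at 207 to 202 bases before the RefSeq start and an E'-box, on the opposite strand, at 172 to 167 bases before it. Of 32807 windows of the same length, 6.02% held an E-box and 3.85% an E'-box. The Mtnr1b window held an E'-box at 34 to 29 bases before the start. The Tph1 window shown held TGACG at 3 places, a string in 17.8% of all windows, and AGGTCA once, a string in 14.0% of them. The upstream Tph1 start had 1 TGACG, at 36 to 32 bases before it, and the Gpr50 window held none of the strings. TAATCC, which 6.26% of windows held, was in none of the windows searched, and there was no window for Aanat. A match says only that the letters are there, and no binding was measured.

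The libraries held 71145068 to 104017800 reads on genes, and the fit covered the 20459 genes that reached 10 reads in 3 or more of them. Values are normalized counts, that is reads divided by a scaling factor for each library. The targeted gene, Arntl, was read at 1700, 3489 and 2928 normalized counts in control and 1779, 2747 and 2415 in Bmal1;CKO, so the groups overlapped (log2 fold change -0.19 ± 0.36, SE; limma-trend adjusted p = 0.924). The reads are summed over the whole gene, including exons outside any floxed part, so this value is no check of the deletion. The study checked it by droplet digital PCR, with significantly fewer Bmal1 copies in sorted endothelial cells of the mutant than of the control. All 12 endothelial markers had at least 10 reads in every library, and so did all 12 rod and all 9 microglial markers. Summed rod markers reached 754200 to 930160 normalized counts in control and 560430 to 900150 in Bmal1;CKO, above the endothelial sums of 196080 to 392760 and 128180 to 266130. Microglial sums were above both, at 1386200 to 4103300 and 2013400 to 3985800. The libraries are therefore labelled as endothelial cells but also hold photoreceptor and microglial RNA, and none of these sums separated the groups.

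**Figure D1:**
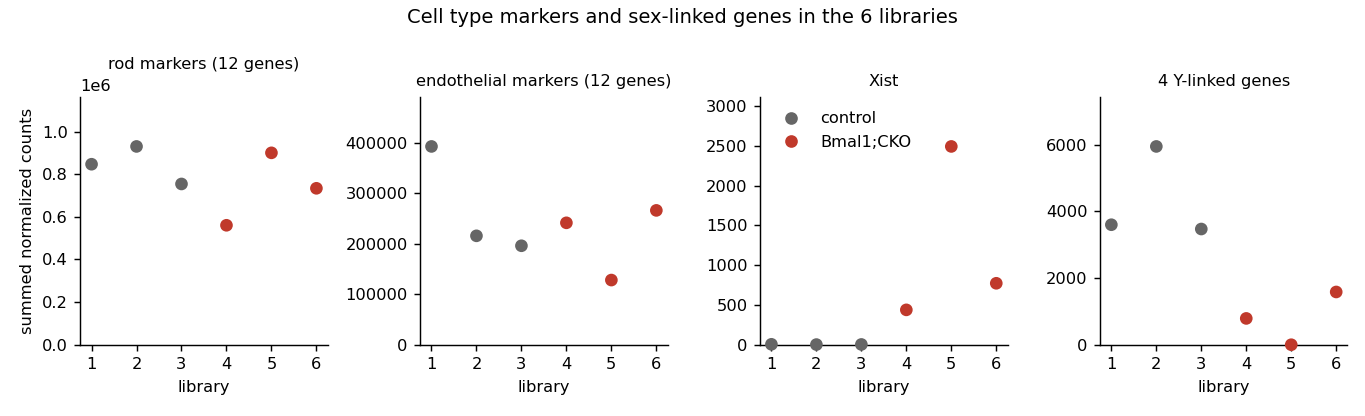
Summed normalized counts of 12 rod markers, 12 endothelial markers, Xist and 4 Y-linked genes in the 3 control (grey) and 3 Bmal1;CKO (red) libraries, 1 point per library. The groups overlap for both marker lists and are apart for Xist, which reached 439 to 2492 normalized counts in Bmal1;CKO and at most 6.15 in control, and for the Y-linked genes.

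Sex-linked transcripts did separate them. Xist, expressed from the inactive X chromosome of females, was at 6.15, 2.78 and 4.29 normalized counts in control and at 439, 2492 and 773 in Bmal1;CKO. The 4 Y-linked genes Ddx3y, Eif2s3y, Kdm5d and Uty summed to 3599, 5946 and 3470 in control and to 790, 1.73 and 1583 in Bmal1;CKO. Control libraries thus held Y-linked transcripts and almost no Xist, Bmal1;CKO 5 held the reverse, and Bmal1;CKO 4 and 6 held both. The sex makeup of the pups and their genotype cannot be told apart in any difference given here.

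Mtnr1a (ENSMUSG00000054764, chr8:45069137-45088506, plus strand) had no read in any control library and was read in every Bmal1;CKO library. Control libraries 1, 2 and 3 were each at 0 normalized counts, and Bmal1;CKO libraries 4, 5 and 6 were at 240.5, 146.0 and 89.8, from 171, 169 and 109 reads. The groups did not overlap, and the highest Bmal1;CKO library was 2.68 times the lowest. The Bmal1;CKO mean was 159 ± 76.2 normalized counts (SD, n = 3). At that level the control libraries would have held 129, 171 and 222 reads. With 3 reads put in place of 0 in each control library, a mean of 2.87 normalized counts, the Bmal1;CKO mean was 55.3-fold higher. This ratio was 41.0-fold without library 4, which had the highest value, 57.5-fold without library 5 and 67.3-fold without library 6. The lowest Bmal1;CKO library was 24.3 times the highest control value set in this way. Such ratios allow only for counting error in control and not for the spread between libraries. Amplified reads without molecular identifiers are also not independent molecules.

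**Figure D2:**
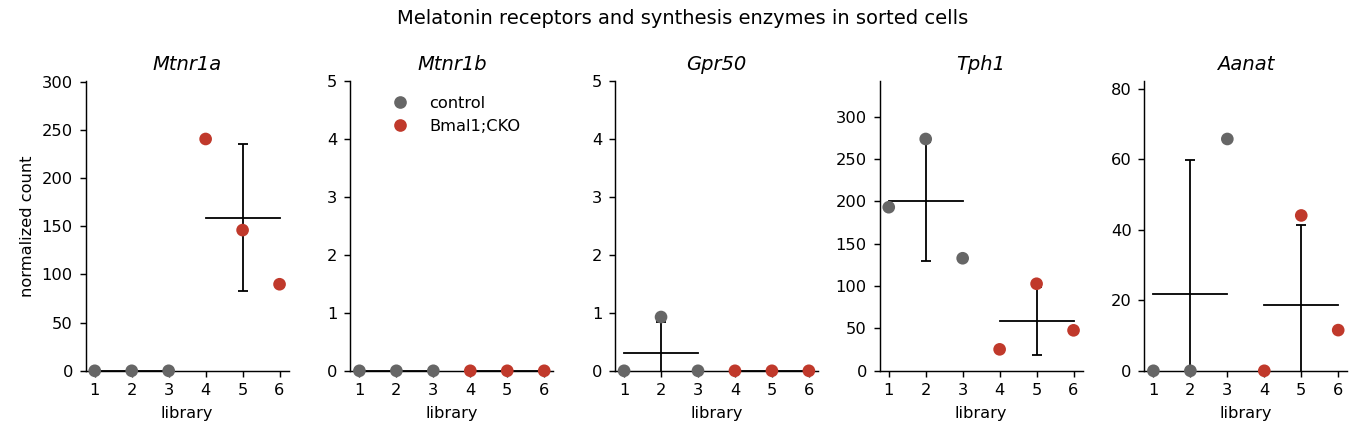
Normalized counts of the 5 genes in control libraries 1 to 3 (grey) and Bmal1;CKO libraries 4 to 6 (red), each panel with its own linear axis, with horizontal lines for group means and bars for 1 SD (n = 3), cut at 0. Mtnr1a is at 0 in all control libraries and at 89.8 to 240.5 in Bmal1;CKO, Tph1 is at 133 to 274 in control and 25.3 to 103 in Bmal1;CKO, and Aanat overlaps.

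The other receptor genes were at or near 0. Mtnr1b (ENSMUSG00000050901, chr9:15824528-15874556, minus strand) had 0 reads in all 6 libraries. Gpr50 (ENSMUSG00000056380, chrX:71663667-71669257, plus strand) had 1 read, in control 2, and 0 in the other 5 libraries. Neither passed the filter for the fit, and the floor of 3 reads corresponds to 2.14 to 4.22 normalized counts in a library. Among the 3 family members, only Mtnr1a was read above that floor, and only in Bmal1;CKO libraries.

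Tph1 (ENSMUSG00000040046, chr7:46644641-46672537, minus strand) was lower in every Bmal1;CKO library than in any control library. Control libraries 1, 2 and 3 had 193, 274 and 133 normalized counts, from 157, 295 and 186 reads. Bmal1;CKO libraries 4, 5 and 6 had 25.3, 103 and 47.8, from 18, 119 and 58 reads. The lowest control library stood 1.29 times above the highest Bmal1;CKO library, a smaller gap than that of Mtnr1a. The means were 200 ± 70.7 and 58.6 ± 39.9 normalized counts (SD, n = 3 each), a ratio of 3.41, and the fitted log2 fold change was -1.91 ± 0.85 (SE).

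Aanat (ENSMUSG00000020804, chr11:116586432-116597680, plus strand) was read in only some libraries of either group. Control libraries 1, 2 and 3 were at 0, 0 and 65.7 normalized counts, and Bmal1;CKO libraries 4, 5 and 6 at 0, 44.0 and 11.5. The groups overlapped, with means of 21.9 ± 38.0 and 18.5 ± 22.8 (SD, n = 3 each). The fitted log2 fold change, 1.03 ± 2.18 (SE), was smaller than its error, and it was -0.26 with edgeR on the recovered reads. No direction can be read from it.

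Of the 5 genes, 3 passed the filter on low reads. Mtnr1a passed it only through the Bmal1;CKO libraries, so its presence among tested genes already required a difference. Over all genes tested, 6.62% had every Bmal1;CKO library above every control library, as Mtnr1a did, and 4.54% had every one below, as Tph1 did, or 11.2% in either direction. Nothing is read from these shares about Mtnr1a and Tph1, which were chosen by this contrast. In this bulk RNA, fewer cells of a type and less RNA per cell cannot be told apart.

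Per kilobase of merged exon, the mean level of Mtnr1a in Bmal1;CKO was 77.4 normalized counts, with 117, 71.2 and 43.8 in libraries 4, 5 and 6. That of Tph1 was 32.4 in control and 9.50 in Bmal1;CKO, and that of Aanat 13.2 and 11.1. On this length-scaled level Mtnr1a was thus the most abundant of the 5 in Bmal1;CKO in each library, whereas in control Tph1 led in libraries 1 and 2 and Aanat, at 39.5 against 21.5 for Tph1, in library 3. Arntl, for scale, was at 360 and 308.

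The remaining enzymes of synthesis were read at low levels. Tph2, the neuronal hydroxylase, was at 0, 13.9 and 55.0 normalized counts in control and at 0 in all Bmal1;CKO libraries, and did not pass the filter. Ddc, the decarboxylase, was at 0, 28.8 and 20.0 in control and 5.63, 11.2 and 21.4 in Bmal1;CKO, which overlapped (log2 fold change 0.51 ± 1.59, SE; limma-trend adjusted p = 0.953). Asmt, the last enzyme, had 0 reads in 5 libraries and 0.864 normalized counts, a single read, in Bmal1;CKO 5. In control 1, control 2 and Bmal1;CKO 4 neither Aanat nor Asmt had a read.

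The summed levels of markers of photoreceptors and mast cells, in which Tph1 or Aanat is known, overlapped between the groups. Of 12 rod markers, 1 was lower in every Bmal1;CKO library and none was higher, against 4.54% of all genes tested that were lower in this way. Of 8 cone markers none had groups that did not overlap, with sums of 33929 to 56175 in control and 41542 to 57763 in Bmal1;CKO. Mast cells also use Tph1. Of 7 mast cell markers, Fcer1a, Cpa3, Tpsb2 and Ms4a2 had 0 reads in all 6 libraries, and the summed level was 0 to 206 normalized counts in control and 1.65 to 77.4 in Bmal1;CKO. In control that sum came almost wholly from Hdc, at 0, 64.0 and 206 in libraries 1, 2 and 3, and in Bmal1;CKO 4 mostly from Cma1, at 66.1. The part of these cell types in the levels of Tph1 and Aanat was not tested.

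The other 48 genes of the pathway were grouped by their role. All had a read, 39 passed the filter, and none of the 39 was called by limma-trend at an adjusted p under 0.05, the background for which was 0% (0 of 20459 genes). At an unadjusted p under 0.05 there were 2, against 4.92% of all genes tested. Neither edgeR, whose background was also 0%, nor DESeq2, which called 0.327% of all genes, called any. Of the 39, 16 had a log2 fold change above 0 and 23 below, with a median of -0.15 against 0.11 over all genes tested. Without control 1 these medians were -0.22 and 0.00059, and with 10 reads required in every library -0.20 and -0.0057. Groups did not overlap for 3 of the 39, all lower in Bmal1;CKO, which is 7.69% against 11.2% of all genes tested in either direction and 4.54% below.

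Both genes at an unadjusted p under 0.05 are on the list for the control of Aanat. Their number among the 39 is near the 4.92% of all genes tested, so nothing is read from their shared list. Prkacb, a catalytic subunit of the cyclic AMP-dependent kinase that phosphorylates AANAT, was at 2094, 2360 and 2916 normalized counts in control and 844, 988 and 1404 in Bmal1;CKO. Every Bmal1;CKO library lay below every control library (log2 fold change -1.21 ± 0.33, SE), and limma-trend gave an unadjusted p = 0.00661 with an adjusted p = 0.883. Ywhaz, the 14-3-3 protein that binds phosphorylated AANAT, had means of 12760 ± 1995 and 8357 ± 2209 (SD, n = 3 each), with a log2 fold change of -0.63 ± 0.27 (SE). For Ywhaz limma-trend gave an unadjusted p = 0.04998, just under the threshold, with an adjusted p = 0.883. The other catalytic subunit, Prkaca, was at 3213 ± 743 and 2910 ± 760 (SD, n = 3 each), and overlapped.

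The photoreceptor transcription factors of the same list were abundant in both groups. Crx was at 26798 ± 2782 normalized counts in control and 24155 ± 6777 in Bmal1;CKO, Otx2 at 30180 ± 11186 and 39716 ± 10964, and Neurod1 at 36951 ± 12853 and 38858 ± 12587 (SD, n = 3 each). All 3 overlapped between groups. Over the 10 genes of this list, which also holds the cyclic AMP-dependent regulators Creb1, Crem and Fosl2, 3 values were above 0 and 7 below, with a median log2 fold change of -0.23.

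Genes that act after the receptors were read in every group. Of 16, which include the inhibitory G protein subunits, adenylyl cyclases, arrestins and potassium channels, 6 were above 0 and 10 below, with a median of -0.11. Gnai2, an inhibitory subunit through which MT1 can signal, was the most abundant at 102630 ± 41548 in control and 120980 ± 29511 in Bmal1;CKO (SD, n = 3 each), and overlapped. Groups did not overlap for 1 of the 16 (6.25%, against 11.2% of all genes tested), Plcb4, a phospholipase C, at 859, 769 and 806 normalized counts in control and 250, 569 and 595 in Bmal1;CKO. Its log2 fold change was -0.88 ± 0.48 (SE), with a limma-trend adjusted p of 0.883.

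The 6 genes of tetrahydrobiopterin, the cofactor of tryptophan hydroxylase, had 2 values above 0 and 4 below (median -0.18), and none had groups that did not overlap. Gch1, the entry enzyme of that route, was at 3406 ± 1491 normalized counts in control and 2798 ± 1202 in Bmal1;CKO (SD, n = 3 each). Of 13 genes of breakdown and transport, 6 passed the filter, 4 above 0 and 2 below (median 0.13). Maoa, which degrades serotonin, was at 2601 ± 617 and 1862 ± 586 (SD, n = 3 each). The melatonin hydroxylases Cyp1a1 and Cyp1a2 were read mainly in Bmal1;CKO 4, at 166 and 14.1 normalized counts, and at no more than 0.864 in any other library.

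**Figure D3:**
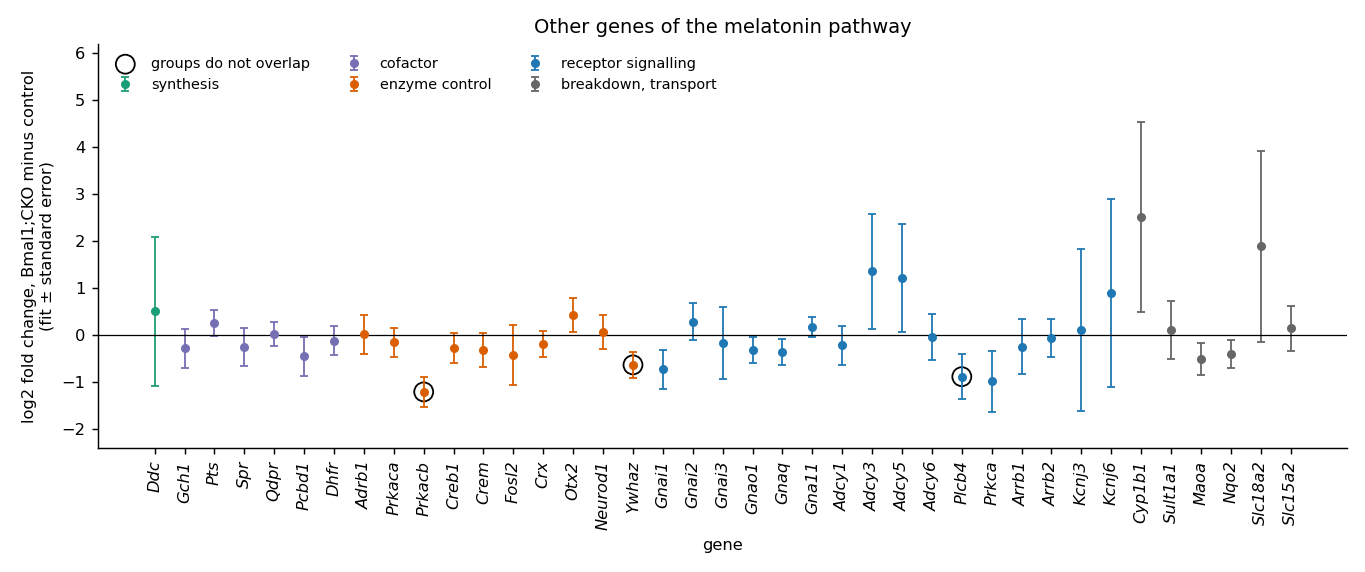
Fitted log2 fold changes (Bmal1;CKO minus control, limma-trend on log2(normalized count + 1)) with standard errors for the 39 tested genes of the pathway other than the 5, coloured by role. Black rings mark Prkacb, Ywhaz and Plcb4, the 3 genes whose groups do not overlap, all below 0.

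The genes around Mtnr1a on the chromosome did not share its pattern. Within 0.5 Mb of it lay 19 other genes of the table, of which 9 had no read and 5 were tested. Fat1, the closest tested gene at 16.9 kb, was at 61.5, 481 and 27.2 normalized counts in control and 38.0, 150 and 115 in Bmal1;CKO. Among the 5, Fam149a had a value above 0 (log2 fold change 0.65 ± 0.50, SE) and 4 were below. None had groups that did not overlap, and none was called. The clotting factor gene F11 was read in control 2 alone, at 32.5 normalized counts.

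**Figure D4:**
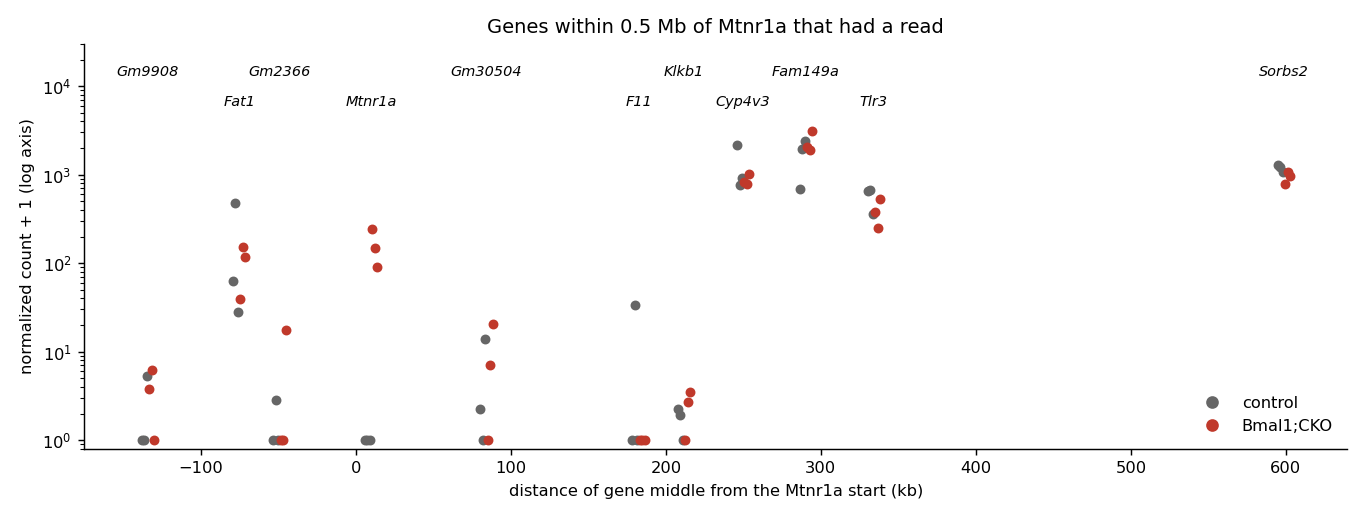
Normalized count + 1 (log axis) of Mtnr1a and of the genes within 0.5 Mb of it that had a read, by the distance of each gene's middle from the Mtnr1a start (kb), 1 point per library with a small sideways spread. Mtnr1a is the gene with all control libraries (grey) at 0 and all Bmal1;CKO libraries (red) above.

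Around Tph1, 22 of 43 genes within 0.5 Mb were tested, with 15 above 0 and 7 below, and 2 lay wholly above and 1 wholly below in Bmal1;CKO (13.6%, against 11.2% of all genes tested). Around Aanat 35 of 54 were tested, with 24 above 0 and 11 below, and 1 lay wholly above and 2 wholly below (8.57%). Over all 20459 genes tested, 11570 were above 0 and 8889 below. The 15 genes around Mtnr1b had 5 tested and the 15 around Gpr50 had 7, so reads were present next to both receptors, themselves at or near 0. Each set had 1 wholly below (20% and 14.3%, against 4.54% of all genes tested), and with so few genes nothing is read from these shares. No gene near any of these 4 was called.

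The all-or-none pattern of Mtnr1a was shared with other genes. In all, 50 genes, or 0.145% of the 34419 with a read, had 0 reads in every control library and at least 10 in every Bmal1;CKO library, and Mtnr1a ranked 3 among them by its Bmal1;CKO mean. They lay on 19 chromosomes, 2 of them on chromosome 8, and 20 were protein coding. The reverse pattern was found for 1 gene (0.00291%), the antisense transcript A530095I07Rik, with 159, 33 and 15 reads in control. Of the tested genes, 11.9% had no read in control 1, 4.31% in control 2 and 1.54% in control 3, against 4.23%, 0.440% and 1.06% in Bmal1;CKO 4, 5 and 6. Control 1 thus had the largest share of genes at 0. The pattern by its definition requires 0 reads in every control library, and the part of dropout in it was not tested.

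The 10 tested genes whose profile over the 6 libraries was nearest to that of Mtnr1a were found by the root-mean-square difference of log2(normalized count + 1), each gene centred on its own mean. Prss35, which encodes a secreted protease-like protein, came closest at 0.203 log2 units, with 305, 198 and 121 normalized counts in Bmal1;CKO 4, 5 and 6. It was followed by the long noncoding RNA Gm35082 at 0.207, Rnf138rt1 at 0.268 and Pdzd7, a scaffold protein of hair cells, at 0.278. Tecta, a component of the tectorial membrane of the inner ear, was at 0.471, and Fbp1, a gluconeogenic enzyme, at 0.497. Of the 10, 7 had 0 reads in every control library, and 7 were also among the 10 nearest with a pseudocount of 10. These likenesses rest mainly on the step between groups and say nothing of shared control.

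**Figure D5:**
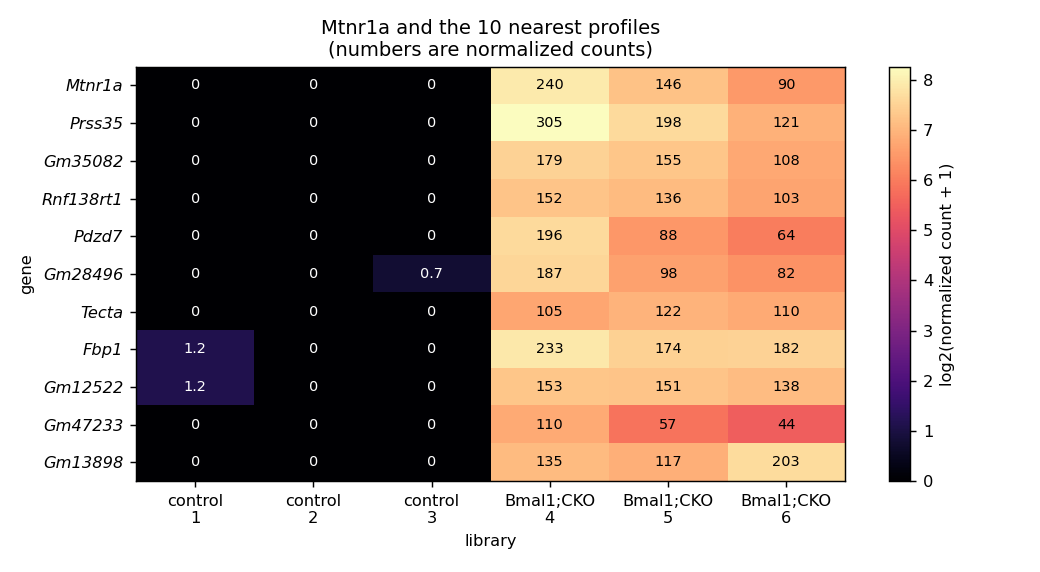
Normalized counts (printed) and log2(normalized count + 1) (colour) of Mtnr1a and the 10 genes with the nearest profiles in each library. All 11 are at 0 to 1.23 normalized counts in control and at 43.7 or above in Bmal1;CKO, and several, Prss35 and Pdzd7 among them, are highest in library 4 and lowest in library 6, as Mtnr1a is.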

How the data were processed

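The 5 genes and the pathway and marker lists were chosen with earlier results of these data known. Per the labels and the study's methods, total RNA from sorted retinal cells was amplified and sequenced as poly(A) RNA, trimmed with Trimmomatic, aligned to mm10 (GRCm38) with Bowtie, which by itself does not place reads across exon junctions, and counted with featureCounts. The deposited signal values were read counts that the authors had divided by DESeq2 size factors. Whole reads were recovered for 100% of values (tolerance 0.01). Columns named a group but not a sample, so libraries were numbered by column. Columns with the authors' own fold changes and p-values were not used. Genes that reached 10 reads in 3 or more libraries were fitted with limma-trend 3.58.1 on log2(normalized count + 1) by genotype alone, with Benjamini-Hochberg adjustment. On this scale the fold change of a low gene depends on the pseudocount, and libraries at or near 0 can raise or lower it. Named genes were the 5, list members at an unadjusted p under 0.05 or with groups that did not overlap, the synthesis genes, sex-linked genes, neighbours within 0.5 Mb and the 10 nearest profiles. The remaining genes were named after their values were seen. Alternatives used edgeR 4.0.16 and DESeq2 1.42.0 on recovered reads, other pseudocounts and filters, and each library left out. Fits were tested on simulated data. Nothing states whether counting used strand, but no annotated gene overlaps the 5. The study's methods give 3 animals per genotype, but no source ties a library to an animal. Bmal1;CKO 4 and 6 held both Xist and Y-linked transcripts, and whether each library came from a single animal is not known. The p-values therefore measure the spread between these libraries.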

Additional observations from a re-analysis of the deposited data

How the results depend on the processing

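No pathway gene beyond the 5 was called by any alternative. Over all genes, limma-trend called 0, against 1 with either other filter on reads, 67 with DESeq2 without shrinkage (42 higher, 25 lower) and 35 with DESeq2 and a normal prior (15 higher, 20 lower). With 1 library left out, the count ranged from 0 to 6, with 6 without control 1. The log2 fold change of Mtnr1a, whose size depends on the prior count because control was at 0, was 8.20 with a pseudocount of 0.5, 3.98 with 10, 10.38 with edgeR and TMM, 10.40 with edgeR and the table's size factors, 9.85 with DESeq2 and 1.21 with DESeq2 and a normal prior. It could not be fitted with the filter of 10 reads in every library, nor was it recomputed without a Bmal1;CKO library, where fewer than 3 libraries held 10 reads. That of Tph1 was -0.81 with the normal prior and ranged from -2.43 to -1.44 with 1 library left out. That of Aanat reversed to -0.26 and -0.24 with edgeR (TMM and table size factors), -0.24 with DESeq2 and -0.014 with the prior, and ranged from 0.017 to 2.55 without control 1, control 2 or Bmal1;CKO 4, the other libraries being needed to pass the filter. The median log2 fold change of all genes was 0.11 with limma-trend, -0.03 with edgeR or DESeq2 without shrinkage and -0.015 with the normal prior, but limma-trend also gave 0.00059 without control 1 and -0.0057 with 10 reads required in every library. The median of the pathway genes was below 0 in each of these. Genes read in 1 group numbered 108 higher and 4 lower with at most 3 reads allowed in the other group. No paired analysis was possible because the columns carry no replicate number of the labels. The ratio of the Mtnr1a mean to the control floor without each Bmal1;CKO library was added after seeing the data.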
